A study of Homo sapiens with 6 samples.

Results

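The open chromatin of human chromosome 20 was followed in SK-N-AS neuroblastoma cells that had or had not become resistant to indisulam. Every peak whose deposited coordinates lie on chromosome 20 was taken, from 6 lists of ATAC-seq peaks. The lists held 6042 of 154926 and 4569 of 115694 peaks on this chromosome in the 2 naïve libraries, 19865 of 340558 and 17919 of 292030 in R1, and 4140 of 67558 and 4491 of 73484 in R2. Joined across lists they formed 21040 of 373067 regions, and 2030 of the 36449 regions with a peak in every list were on chromosome 20. The chromosome was chosen by its rank and its share of the strongest peaks in the resistant against the naïve libraries. That contrast is therefore described here and not tested.

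SK-N-AS is an established neuroblastoma line, and all 3 cell types compared were grown in culture from its xenografts in mice. The naïve cells came from tumors treated with vehicle, and R1 and R2 each from tumors that had relapsed on indisulam, a drug that glues the splicing factor RBM39 to a ubiquitin ligase so that it is degraded. The labels say the cultures themselves were not treated, and 100000 cells went into each library. Whether the 2 libraries of a cell type were separate cultures is not stated, so their spread may be technical. Host mouse cells could be present and were not analysed here. R1 and R2 are compared with the same naïve libraries.

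In ATAC-seq the Tn5 transposase cuts DNA that is not wrapped in nucleosomes, and places where cuts pile up are called as peaks, mostly promoters, which lie at gene starts, and enhancers. Chromosome 20 has a short and a long arm; the long arm carries RBM39 and many cell cycle and growth genes, and gains of it are known from several tumor types. The signal at a region depends on how open it is and on how many copies of it a cell has. The lists hold no measure of DNA copies, so more copies and more openness per copy cannot be told apart.

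The sequences below show what kinds of DNA stood at the extremes. They are hg38 reference sequence, and capitals mark matches, on either strand, to any of 7 motifs. These are the E-box CACGTG, the AP-1 motif TGANTCA, the CCAAT box CCAAT, the GC box GGGCGG, the ETS motif CCGGAAG, the NRF1 motif CGCATGCG and the TEAD motif GGAATG. Stretches annotated as UTR were cut off. The first pair lie upstream of listed genes whose promoter ranks differed by over 40 points between resistant and naïve libraries, as far as the RefSeq promoter table (GRCh38.p14) holds them. GINS1 (chr20:25407423-25407610, plus strand) codes for a subunit of the helicase complex that opens DNA for replication. POFUT1, chosen with PLAGL2 after the values were seen (chr20:32207744-32207854, plus strand), which adds fucose to Notch receptors, shares its promoter peak with PLAGL2, a zinc finger factor gene on the other strand.
GINS1: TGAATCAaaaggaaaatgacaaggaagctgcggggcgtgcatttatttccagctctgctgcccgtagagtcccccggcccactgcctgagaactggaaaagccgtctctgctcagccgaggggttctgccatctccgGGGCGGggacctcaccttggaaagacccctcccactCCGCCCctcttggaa
POFUT1: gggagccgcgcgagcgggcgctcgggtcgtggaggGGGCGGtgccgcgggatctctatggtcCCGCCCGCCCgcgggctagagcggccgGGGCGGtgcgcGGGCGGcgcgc
The GINS1 stretch held 1 AP-1 match and 2 GC boxes, and the POFUT1 stretch 5 GC boxes, a pair of which overlap. GC boxes stood in 42.6% of the 250-base upstream stretches of all 35116 RefSeq entries and in 40.1% of the 921 on chromosome 20.

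The next 4 are taken around summits, up to 100 bases to each side. The first 2 had the highest rank differences among the shared regions, namely the region in an exon of the long noncoding RNA MHENCR (chr20:63628285-63628484) and that in an intron of NDRG3 (chr20:36677265-36677464). The next, in an intron of LINC02970 (chr20:62602807-62603006), had the lowest. The last, in an intron of BMP7 (chr20:57244665-57244864), had the best place of those found in every resistant and in no naïve list. All are given on the plus strand.
MHENCR exon: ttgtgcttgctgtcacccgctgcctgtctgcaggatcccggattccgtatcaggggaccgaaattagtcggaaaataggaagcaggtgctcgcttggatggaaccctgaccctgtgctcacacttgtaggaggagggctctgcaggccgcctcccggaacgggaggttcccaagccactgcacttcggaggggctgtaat
NDRG3 intron: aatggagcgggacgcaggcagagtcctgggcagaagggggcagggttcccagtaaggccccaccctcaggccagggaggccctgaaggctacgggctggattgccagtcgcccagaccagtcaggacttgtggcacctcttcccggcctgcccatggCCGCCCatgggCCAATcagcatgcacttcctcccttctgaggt
LINC02970 intron: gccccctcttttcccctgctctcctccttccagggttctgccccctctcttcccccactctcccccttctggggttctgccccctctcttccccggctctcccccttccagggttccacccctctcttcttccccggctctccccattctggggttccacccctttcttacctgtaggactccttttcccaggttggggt
BMP7 intron: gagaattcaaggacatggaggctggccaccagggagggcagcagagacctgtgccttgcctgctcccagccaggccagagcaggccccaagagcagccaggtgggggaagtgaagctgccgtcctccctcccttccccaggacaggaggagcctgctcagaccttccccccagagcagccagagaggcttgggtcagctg
Only the NDRG3 stretch of these 4 held any of the 7 motifs, 1 GC box and 1 CCAAT box, which stood in 37.7% and 18.7% of the 200-base summit windows of all shared regions. The LINC02970 stretch repeats a C-rich unit. No repeat annotation was used.

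Chromosome 20 held a larger share of the open regions in every resistant library than in either naïve library. Of all peaks it held 3.90 and 3.95% in naïve cells, then 5.83 and 6.14% for R1 and 6.13 and 6.11% for R2. Naïve libraries averaged 3.92% ± 0.0348 (SD, n = 2) and resistant ones 6.05% ± 0.146 (SD, n = 4). The 95% Wilson intervals of the shares ran from 3.805 to 4.06% over the naïve and from 5.75 to 6.31% over the resistant lists. They cover counting error only, take neighbouring peaks as independent, and are no test of the contrast. Among the 20000 strongest peaks of each list the shares were 3.12 and 3.56%, 4.71 and 5.03%, and 5.20 and 5.59%. The groups did not overlap on either count, but the share of the strongest peaks was used in choosing the chromosome. The lack of overlap is thus a description. The background rates recovered from the folds, a measure of depth, were 2.29 and 1.351 tags per window in the naïve lists, between those of R2 (0.8503 and 0.899) and of R1 (7.94 and 5.43). The part of depth in the shares was not tested.

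To compare regions across libraries of unlike depth, each shared region was given a percentile rank by p within its library, from 0 for the weakest to 100 for the strongest of the 36449. The median rank of the chromosome 20 regions was 26.8 and 35.2 in the naïve libraries, then 54.3 and 57.4 for R1 and 51.0 and 51.3 for R2. The naïve mean was 31.0 ± 5.95 (SD, n = 2), the R1 mean 55.9 ± 2.21 (SD, n = 2) and the R2 mean 51.1 ± 0.180 (SD, n = 2), with no overlap between naïve and resistant libraries. Naïve cells thus had this chromosome's regions in the lower part of their rank order and resistant cells near the middle of theirs. Ranks come in steps, since pileups are whole numbers: in the R2 libraries the median stood on a step whose neighbours were 41.5 and 58.5 in replicate 1 and 43.2 and 58.0 in replicate 2.

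Region by region, the mean resistant rank minus the mean naïve rank had a median of 16.7 percentile points over chromosome 20, against -0.44 over all shared regions. It was 17.9 for R1 and 15.2 for R2. On the scale of log2 fold enrichment, quantile-normalised across libraries, the median difference was 0.36, a factor of 1.28. Of the 2030 regions, 1757 (86.6%) had a positive difference. In 811 (39.95%) all 4 resistant libraries ranked above both naïve ones, where 12.7% of all shared regions did, and in 14 (0.690%) all ranked below, where 12.8% did. Without naïve replicate 1 the count below was 116 (5.45%, against 23.9% of all regions), and without naïve replicate 2 it was 68 (2.87%, against 23.1%). Without R2 replicate 1 it was 44 (1.78%, against 17.8%), and without R2 replicate 2 it was 33 (1.36%, against 17.4%). With ranks among all peaks the count above was 204 (10.05%, against 3.57%), and without naïve replicate 2 it was 1279 (54.1%, against 23.01%). By the median difference the chromosome had place 3 of 23 (Y left out), and also place 3 for R1 and for R2 alone.

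Neighbouring regions are not separate measurements in the deep lists, because broad R1 peaks span many regions of the R2 list that served as the anchor: the 2030 regions met 1529 and 1684 distinct peaks in the naïve lists but only 978 and 1024 in R1. For the 647 regions whose peak was joined to no other region in any list, the median difference was 12.1. When ranks were taken among all peaks of a list, in place of the shared ones, the chromosome's median difference was 2.95 against -2.96 over all regions, and for R2 alone it was -6.33 against -15.0, so that its sign depended on this choice while it stayed above the whole.

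The chromosome stood above the whole at every naïve level. Since the naïve rank is subtracted, weak regions tend to the larger differences whatever the chromosome, and each level is read against all regions of that level. Regions in the lowest 25 percentiles of the naïve rank order had a median difference of 22.9 on chromosome 20 and 13.4 over all chromosomes. In the next 3 steps of 25 the chromosome 20 medians were 18.3, 10.9 and 3.34, whereas those of all regions were 1.97, -7.34 and -6.27. Over all regions of the level, chromosome 20 was thus higher by 9.51, 16.3, 18.2 and 9.61 points. The plot of rank difference by naïve rank shows the quartiles.

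**Figure D1:**
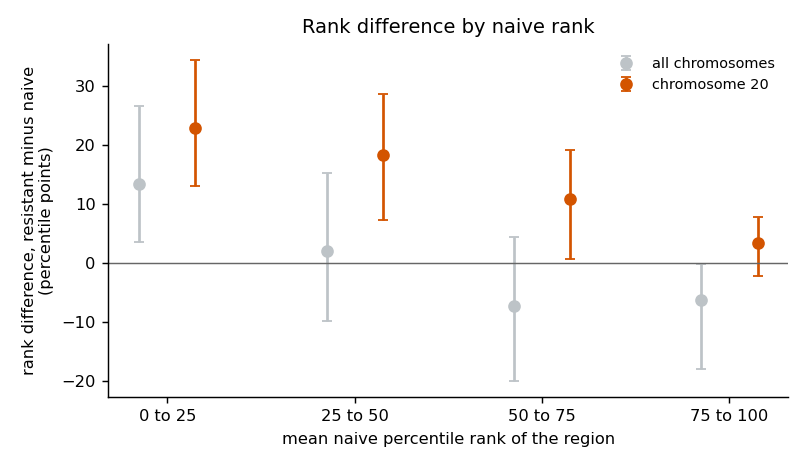
Difference in percentile rank, resistant minus naïve, for shared regions grouped by their mean naïve rank (x axis); points are medians and bars run from the lower to the upper quartile over regions. Chromosome 20 medians lie at 22.9, 18.3, 10.9 and 3.34 points, each above that of all chromosomes in the same group (13.4, 1.97, -7.34 and -6.27).

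The higher rank was spread over both arms. The short arm, taken up to 28 Mb, had 331 shared regions with a median difference of 15.9, and the long arm had 1699 with 16.8. Of the short arm regions 142 (42.9%) and of the long arm regions 669 (39.4%) ranked higher in all 4 resistant libraries, both above the 12.7% of all shared regions. In 2 Mb bins, 25 bins held at least 10 regions, and the median difference was positive in all 25, for R1 and for R2 taken alone as well. It ran from 8.76 in the first bin of the long arm (28 to 30 Mb) to 28.5 at 10 to 12 Mb on the short arm, which held 13 regions. The 7 bins with fewer regions, 31 regions in all, also had positive medians. In 23 of the 25 bins the 4 resistant libraries had median ranks above both naïve ones. Over the chromosome, the 2 libraries of a type differed at a region by a median of 10.6 points, regardless of sign, for naïve cells, 4.53 for R1 and 15.1 for R2, and their bin medians lay up to 18.0, 22.5 and 13.2 points apart.

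**Figure D2:**
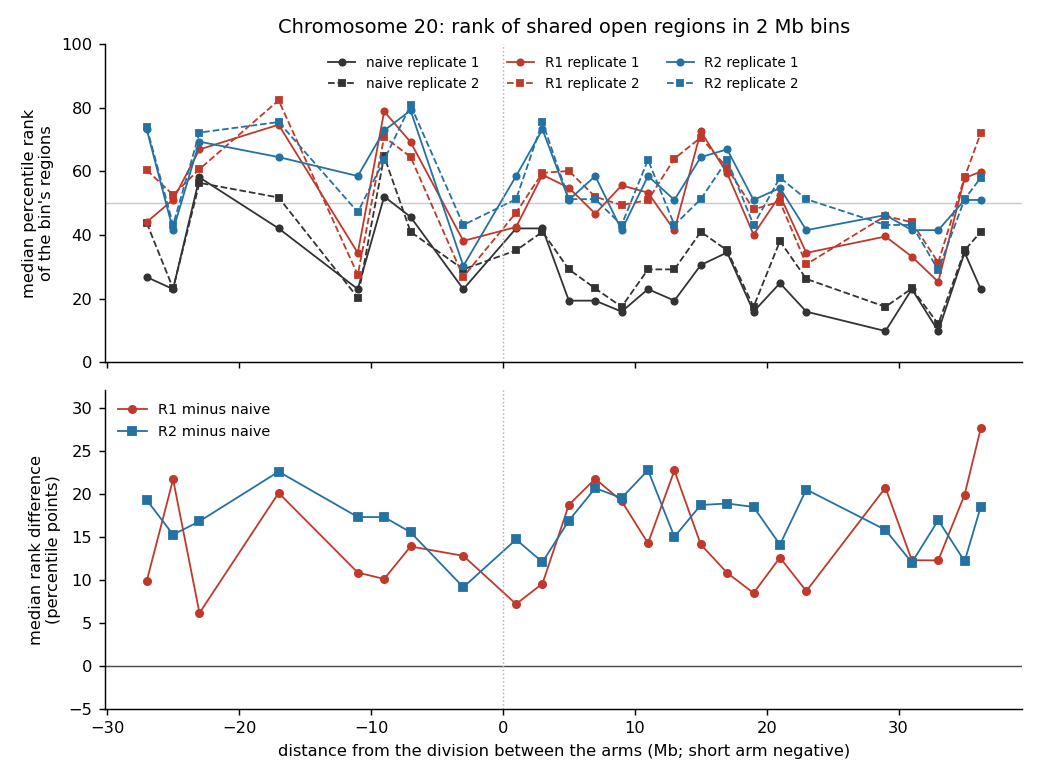
Upper panel: median percentile rank of the shared regions of each 2 Mb bin with at least 10 regions, in each of the 6 libraries, against distance from the division between the arms (Mb, short arm negative). Lower panel: median rank difference of R1 and of R2 from the naïve libraries in the same bins; all 25 bins lie above 0 for both, with R1 between 6.13 and 27.6 and R2 between 9.13 and 22.7 points.

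The end of the long arm stood apart in density. The last 2.444 Mb, from 62 Mb on, a boundary set after the values were seen, held 890 (43.8%) of the chromosome's shared regions, 364 per Mb, against 11.8 per Mb on the short arm and 23.8 per Mb on the rest of the long arm. Its GC content was 56.3%, against 41.7% and 44.7%, and it had 26.2 protein-coding genes per Mb, against 6.64 and 8.71. Peaks covered 46.0 and 36.7% of its bases in the naïve lists, then 77.5 and 74.6% for R1 and 29.6 and 31.9% for R2, whereas they covered between 1.73 and 21.8% of the rest of the chromosome. Such dense ends are not particular to chromosome 20: by the count of shared regions in an equal length it was second of 23, after that of chromosome 17 with 1023. The 4333 shared regions in ends of this length on the other chromosomes had a median rank difference of -4.96, but single ends differed: that of chromosome 13 had 32.6 (174 regions) and that of chromosome 22 had 17.4 (32 regions).

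**Figure D3:**
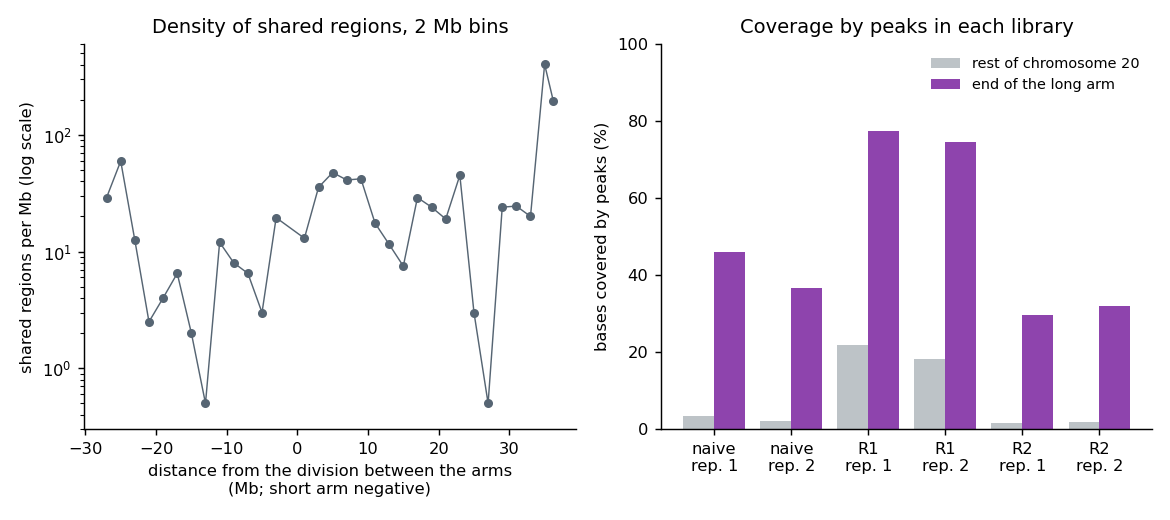
Left: shared regions per Mb (log scale) in 2 Mb bins, against distance from the division between the arms. Right: share of bases covered by peaks in each library, for the last 2.444 Mb of the long arm and for the rest of the chromosome; the end is covered more densely in every library, up to 77.5% in R1 replicate 1.

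The rank difference at this end was near that of the rest, but its make-up by cell type was not. The median was 17.1 from 62 Mb and 16.5 before it. From 62 Mb, R1 stood 20.5 points and R2 12.5 points above naïve cells, whereas before it R1 stood 15.0 and R2 17.5 points above. Ends of this length on the other chromosomes leaned the same way, with a median R1 minus R2 difference of 4.01. Their medians against naïve cells were -2.82 for R1 and -6.81 for R2. The contrast of R1 with R2 was not used to choose the chromosome. Over the whole chromosome both R1 libraries ranked above both R2 libraries in 643 regions (31.7%), where 26.4% of all shared regions did, and below in 538 (26.5%), where 34.5% did. From 62 Mb these shares were 41.0 and 17.6%, and on the long arm before 62 Mb they were 23.2 and 35.0%, close to those of all regions. The median R1 minus R2 difference over the chromosome, 2.35, changed sign to -1.27 without the last 2.444 Mb, where the medians over all chromosomes were -1.85 and, without the same stretch, -2.12. In bins it ran from -8.68 at 50 to 52 Mb to 8.92 at 62 to 64 Mb, and was below 0 in 16 of 25 bins and below the -1.85 of all regions in 10. For the 647 regions with peaks of their own, 589 of them before 62 Mb, the median R1 minus R2 difference was 4.59. Ranks were there taken among the 16032 such regions of all chromosomes, whose median was not computed. The median R1 peak met by a region from 62 Mb was 12694 and 10230 bp wide in the 2 libraries, against 1804 and 1068 bp in the naïve and 514 and 762 bp in the R2 lists. The 890 regions met only 188 and 208 distinct R1 peaks. The part of peak width in the R1 minus R2 difference was not tested. Before 62 Mb the 1140 regions met 790 and 816 distinct R1 peaks.

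Regions at gene starts and away from them were both ranked higher. Within 1000 bp of a transcription start lay 794 (39.1%) of the chromosome's regions, against 49.9% of all shared regions, and their median difference was 17.8, or 0.42 on the log2 scale. The other 1236 regions had 16.1, or 0.32. The sequence content of the 2 stretches differed. Within 50 bp of the summit, 6.75% of the regions before 62 Mb held the AP-1 motif, bound by FOS and JUN factors, and 1.69% of those from 62 Mb, against 4.24% of all shared regions. Before 62 Mb and away from starts the AP-1 share was 10.0% and that of the TEAD motif, read by the partners of YAP1, 9.55%, against 5.996 and 7.28% of all regions away from starts. From 62 Mb and away from starts they were 2.14 and 4.77%. Over the whole chromosome away from starts they were 6.15 and 7.20%, near those of all such regions. GC boxes, bound by SP1-like factors, were in 21.5% before and 14.04% from 62 Mb, below the 24.9% of all shared regions. Away from starts the GC box shares were 10.2% before and 11.2% from 62 Mb, near the 11.6% of all regions away from starts. These are matches of letters and not sites of binding.

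The 3 regions with the best mean rank over all libraries lay between genes, at 1876643-1877313, 31057436-31070223 and 47894619-47896067 of hg38, and their ranks ran from 98.0 to 99.8. At the top of the order ranks can hardly differ, and on the log2 scale their differences were 0.06, -0.30 and 0.30. The second of them was 12788 bp wide. At the other extreme, the MHENCR region (63628150-63628565) ranked 12.8 and 1.34 in the naïve libraries, then 81.8 and 81.5 for R1 and 81.6 and 87.8 for R2, a difference of 76.1. The NDRG3 region (36676731-36677513) ranked 19.4 and 17.5 in naïve cells, then 89.3 and 95.6 for R1 and 90.9 and 89.0 for R2, a difference of 72.8. Both were high in every resistant library and low in both naïve ones. The lowest difference, -43.0, belonged to the LINC02970 region (62602763-62603444), which ranked 79.5 and 60.7 in naïve cells, then 30.5 and 30.3 for R1 and 41.5 and 5.94 for R2. The next lowest, -42.9 at 50415528-50415827 and -41.8 at 51366208-51366708, lie between genes. The latter was 32822 bp from the nearest annotated transcript start of NFATC2, which is not its canonical start at 51542719. NFATC2 codes for a calcium-regulated transcription factor.

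Some regions were found in 1 condition alone. Of the 21040 joined regions 96 (0.456%) had a peak in all 4 resistant libraries and in neither naïve one, against 0.245% of the joined regions of all chromosomes. In the other direction there was 1, or 0.00475%, against 0.174%. Of the 96, 22 were on the short arm, 90 before 62 Mb and 13 at gene starts. The best placed, at 57243440-57245236 in an intron of BMP7, 731 bp from a start of this gene for a bone morphogenetic protein, was in place 4583 and 4575 of the R1 lists and 8434 and 7665 of the R2 lists, with folds of 21.0, 19.4, 9.73 and 10.0. The 1 region found only in naïve cells, at 14288936-14289197 in an intron of MACROD2, was in places 55144 and 59777, with folds of 5.17 and 5.10. A list with no peak there does not show that the region was closed, since a fold under the calling threshold is not listed.

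Promoters were then followed gene by gene, by the strongest peak within 1000 bp of the canonical start, ranked among the 10950 protein-coding promoters with a peak in every list. Chromosome 20 had 546 protein-coding genes. Of these, 393 (72.0%) had a promoter peak in all 6 lists and 17 in none, so that 96.9% had one in some list. Over all chromosomes 54.7% of 20033 protein-coding genes had one in all 6 lists and 85.5% in some list. The 72.0% is the share to hold the called members of each list below against. In 368 of the 393 the difference was positive, and its median was 16.6. In 199 all 4 resistant libraries ranked above both naïve ones, which is 50.6%, where 12.7% of all promoters did so, and 3 were below, where 13.7% of all did. The difference was positive for 93.6% of the 393, against 48.5% of all promoters, and 50.6% is the share of the chromosome to hold each list below against. Promoters counted in a list as without overlap had all 4 resistant libraries above both naïve ones. By part, the median was 15.0 for the 132 promoters of the short arm, 19.0 for the 198 of the long arm before 62 Mb and 13.4 for the 63 beyond it. The 393 genes had between 340 and 353 distinct peaks in a list, since neighbours can share one. The 3 that were below, named for that after the values were seen, were NPEPL1, EEF1A2 and APCDD1L.

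RBM39 (ENSG00000131051.24), the splicing factor that indisulam removes, is on the minus strand of chromosome 20 at 35701347-35742312. Its promoter peak held the start in every list, and the summit lay between 95 and 288 bp upstream of it. Its percentile among promoters was 52.0 and 65.2 in naïve cells, then 69.3 and 80.9 for R1 and 94.5 and 70.4 for R2. All resistant libraries were thus above both naïve ones, by a mean of 20.2 points, but the 2 R2 libraries differed by more than that. In 199 of the 393 promoters of the chromosome the same order was seen, and the difference of RBM39 was near their median of 16.6. The deposited fold was 11.0 and 12.3 in naïve cells, then 22.8 and 24.2 for R1 and 19.997 and 12.6 for R2, values that move with depth and are not compared between lists.

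All 18 genes listed under RNA processing, RBM39 and translation factors such as EIF2S2 included, had a promoter peak in every list. The list was a choice and does not hold every such gene of the chromosome. The difference was positive in 18 of 18 and without overlap in 9, beside 50.6% of the chromosome's promoters, with a median of 22.005 against 16.6. The strongest promoters were those of RALY, an RNA-binding protein of the hnRNP family, of STAU1, which binds double-stranded RNA, and of the helicase DHX35, with differences of 12.6, 10.8 and 31.9. RALY ranked 72.0 and 94.2 in naïve cells, then 92.2 and 93.1 for R1 and 98.3 and 99.1 for R2, and its groups overlapped. EIF2S2, a subunit of the factor that brings the first tRNA to the ribosome, had the highest difference of the list, 45.6, from 30.1 and 40.6 in naïve cells to between 76.0 and 87.8 in resistant ones. SNRPB2, a protein of the U2 snRNP, had the lowest, 4.67. It ranked 35.6 and 36.6 in naïve cells and 51.6 and 60.2 in R1, but 9.82 and 41.4 in R2.

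Of 17 genes of the cell cycle and replication, all with a peak in every list, 16 (94.1%) had a positive difference and 8 (47.1%) did not overlap between groups, near the 93.6 and 50.6% of the chromosome's promoters, with a median of 19.1. The 3 strongest promoters were those of TOP1, the topoisomerase that relaxes DNA, PCNA, the sliding clamp of replication, and the transcription factor E2F1, with differences of 10.4, 13.1 and 13.4. PCNA ranked 88.8 and 77.1 in naïve cells, then 93.0 and 96.5 for R1 and 96.7 and 98.1 for R2, without overlap. GINS1, whose upstream sequence is shown above, went from 9.20 and 5.66 in naïve cells to 54.6 and 52.8 in R1 and 61.9 and 46.5 in R2. This was the highest difference of the list, 46.5. CENPB, which binds centromere repeats, had the lowest, -1.19, and all but R2 replicate 2, at 63.9, ranked between 79.1 and 89.8.

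The 17 listed genes of growth control and of the long arm regions gained in tumors were all called in every list. In 12 (70.6%) all resistant libraries ranked above both naïve ones, and in 14 (82.4%) the difference was positive. Over the chromosome's promoters these shares were 50.6 and 93.6%. The median difference was 15.9. TFAP2C, a transcription factor of the neural crest and of germ cells, had the highest, 48.8. It ranked 3.90 and 24.5 in naïve cells, then 75.7 and 59.5 for R1 and 65.6 and 51.2 for R2. YWHAB, a 14-3-3 protein, the phosphatase PTPN1 and the nuclear receptor coactivator NCOA3 had the strongest promoters and differences of 4.49, 11.6 and 5.08, each without overlap. EEF1A2, a tissue-restricted translation elongation factor, went the other way. It ranked 65.1 and 77.1 in naïve cells, then 44.2 and 60.2 for R1 and 57.6 and 46.5 for R2, so that all resistant libraries were below both naïve ones, a difference of -19.0. The other members with a negative difference, named after the values were seen, were PTK6 (-5.62) and BIRC7 (-3.84), whose groups overlapped. These 3 were the only members of this list from 62 Mb on, where 58 of 63 promoters had a positive difference.

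The 9 listed genes of the ubiquitin system had the smallest median of the lists with every member called, 8.45. Of them 9 were positive and 5 (55.6%) without overlap, near the 50.6% of the chromosome. ADRM1, a ubiquitin receptor of the proteasome, PSMA7, a subunit of its core, and the ligase RNF24 had the strongest promoters, with differences of 7.08, 8.04 and 5.12. The ligase ITCH had the highest difference, 38.3, from 30.1 and 55.6 in naïve cells to between 72.4 and 88.5 in the others. RNF114, another ligase, had the lowest, 4.04, and its groups overlapped.

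Of 25 genes of neurons and of hormone-secreting cells, 23 and 21 had a promoter peak in the naïve lists, then 25 and 25 for R1 and 22 and 20 for R2, and 19 (76.0%) had one in all, against 72.0% of the chromosome's protein-coding genes. Of these 18 (94.7%) had a positive difference and 10 (52.6%) no overlap, near the 93.6 and 50.6% of the chromosome, with a median of 22.5. MACROD2, an enzyme that removes ADP-ribose, had the highest of all listed genes, 69.5, and ranked 9.20 and 36.6 in naïve cells, then 99.4 and 98.5 for R1 and 86.2 and 85.3 for R2. SNAP25, a SNARE protein of synaptic vesicle release, ranked 41.1 and 16.4 in naïve cells, then 95.9 and 94.2 for R1 and 69.1 and 91.2 for R2, a difference of 58.8. For both the groups were apart. OXT, the oxytocin gene, had the lowest, -2.05, with ranks between 1.90 and 8.76 in all libraries.

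**Figure D4:**
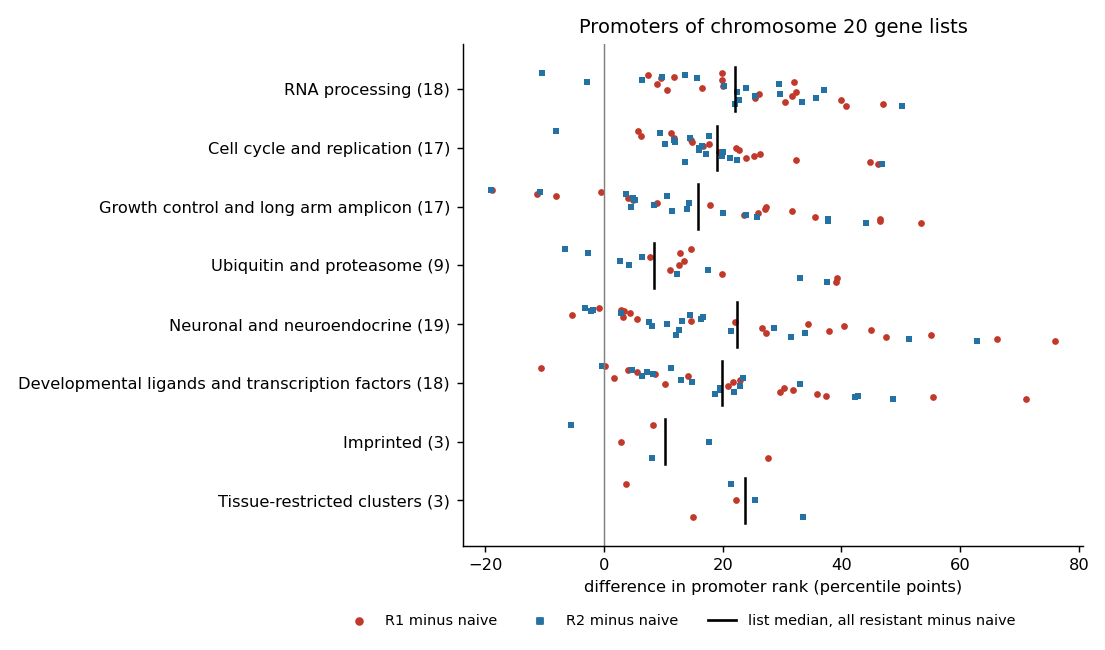
Difference in promoter rank from the naïve libraries for each listed gene with a promoter peak in every list (number in brackets), for R1 (circles) and R2 (squares), genes of a list ordered by their mean difference; black lines are list medians, from 8.45 for the ubiquitin system to 23.8 for the tissue-restricted clusters. Most points lie to the right of 0 in every list.

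Of 26 developmental ligands and transcription factors, 25 and 22 had a promoter peak in the naïve lists, then 26 and 26 for R1 and 20 and 21 for R2. The 18 called in all were 69.2% of the list, against 72.0% of the chromosome's genes. Of these, 17 (94.4%) had a positive difference and 10 (55.6%) no overlap, again near the chromosome's shares, with a median of 19.9. TCF15, a bHLH factor of the early mesoderm, had the highest, 59.9. It ranked 11.4 and 28.6 in naïve cells, then 92.1 and 90.1 for R1 and 86.2 and 51.2 for R2. The strongest promoters were those of SOX12, a neural SOX factor, ZHX3, a homeobox repressor, and CEBPB, a leucine zipper factor, with differences of 6.404, 18.3 and 25.8, each without overlap. GATA5, a factor of heart and gut, had the lowest, -0.07, and its R2 libraries lay at 38.3 and 4.40.

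Of 5 imprinted genes, which are read from 1 parental copy, 3 were called in every list, with a median of 10.3 and overlap in each: GNAS, coding for a G protein subunit, had 17.9, L3MBTL1, a reader of methylated histones, 10.3, and BLCAP 1.34. Of 51 genes in clusters used in few tissues (cystatins, defensins, WFDC, BPIF and SIRP genes and the like), 14 and 12 had a promoter peak in naïve cells, then 41 and 38 for R1 and 7 and 7 for R2. The order of the cell types is that of depth. It was the same for all 546 protein-coding genes of the chromosome, with 453 and 434 in naïve cells, then 527 and 522 for R1 and 430 and 427 for R2. Only 3 were called in every list, namely WFDC3, CST3, coding for the widely made cystatin C, and SIRPA, a receptor of myeloid cells and neurons. Their differences were 24.2, 23.8 and 12.6, and CST3 alone had no overlap.

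**Figure D5:**
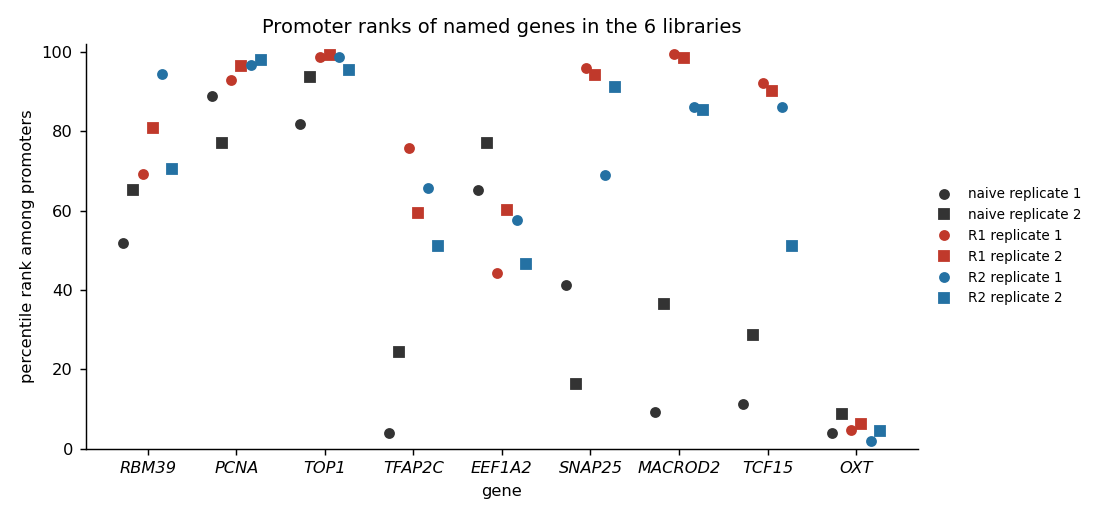
Percentile rank of the promoter in each of the 6 libraries for 9 named genes (circles replicate 1, squares replicate 2). SNAP25, MACROD2, TCF15 and TFAP2C rank lower in both naïve libraries than in all 4 resistant ones, EEF1A2 is highest in the naïve libraries, and OXT is low in all.

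The labelled cell type was looked at through promoters elsewhere in the genome. Of genes that mark adrenergic neuroblastoma, HAND2, GATA3, ISL1, DBH and TH had a promoter peak in all 6 lists. Of 6 mesenchymal markers, 4 had one in all. Of markers of other tissues, PTPRC, CD3E and ALB had none in any list, and PECAM1, CDH5, EPCAM, CDH1, KRT5 and APOB had one in 3 to 5. A peak at a promoter is not a measure of expression, and the part of other cells in these results was not tested.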

How the data were processed

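ATAC-seq was compared in 2 naïve, 2 R1 and 2 R2 libraries. Per the labels and the methods, the authors aligned reads with BWA 0.7.12-r1039, marked duplicates with Picard 1.65, filtered with SAMtools 1.3.1, removed reads of mitochondrial DNA, moved cut positions (+4 and -5 bp), and ran MACS2 2.2.7.1 on each library separately (q 0.01, extension 200 bp, shift 100 bp); bedtools 2.25.0 is also named. The methods name hg19 and the labels hg19 and hg38. The last peak ended at 64328299, within the 64444167 bp of chromosome 20 in hg38, so hg38 with GENCODE release 44 was used here.

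Each deposited peak has a fold (the ratio of its pileup to background), a −log10 p-value and a −log10 q-value, all written by the authors' caller. The depth is not given, and background rates were recovered from the steps of the folds. All pileups so recovered were whole numbers, within 0.05.

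From these lists, regions of the first R2 list that shared at least 1 base with a peak of every other list were ranked by p within each library, ties at their mean rank, and the strongest overlapping peak was used. Arms were divided at 28 Mb, inside the largest gap between peaks. Scripts were tested on simulated data. No test was run between cell types: the chromosome was chosen on these libraries, and the members, gene lists and motifs were chosen with earlier results of these data known. Named genes are RBM39 and, for each list, the 3 with the highest mean rank and those with the highest and lowest difference; named regions are the 3 best, 3 highest and 3 lowest and the best found in 1 condition. Some items that these rules name are not reported here. All other names are marked as chosen later. Of 168 listed genes the RefSeq promoter table held 114. Tools were Python 3.11.15, NumPy 2.4.6, pandas 2.3.3, SciPy 1.17.1, pysam 0.24.0, Matplotlib 3.10.9 and BEDTools 2.31.1.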

Additional observations from a re-analysis of the deposited data

Results flagged for a closer look

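At 3 of the 104 listed promoters called in every list (2.88%) the libraries had R1 and R2 on opposite sides of the naïve mean for both libraries of each type. The share was 5.60% of the 393 promoters of chromosome 20 and 13.2% of all 10950. None of these differences was tested, and R1 and R2 share the naïve libraries. NTSR1, a neurotensin receptor, ranked 5.44 points below naïve cells in R1 and 14.6 above in R2 (R1 minus R2 -20.01). FOXS1, a forkhead factor, was 10.7 below in R1 and 11.3 above in R2 (-22.0), with its naïve libraries at 9.20 and 36.6. SYNDIG1, a synaptic protein, was 3.44 above in R1 and 2.14 below in R2 (5.58), at ranks under 10 throughout. No 2 Mb bin split in this way.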

How the results depend on the processing

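Of 104 recomputed values, 74 stayed within the spread of replicates or within 1.5 times a count, 29 moved and 1 reversed; the causes were not tested unless named. The median rank difference of 16.7 kept its sign in every alternative run. With ranks among all peaks it was 2.95 (short arm 3.44, long arm 2.88), and RBM39 had 2.33. R1 minus R2 was then 27.4, against 27.8 over all regions. Without overlap 204 regions were higher (10.05%, against 3.57% of all regions) and 8 lower (0.394%, against 3.23%). With joined regions as anchor the values were 12.6, log2 0.30 and long arm 12.1. Of these 1143 regions 457 were higher (39.98%, against 12.7% of all such regions) and 22 lower (1.92%, against 14.9%). With an overlap fraction of 0.5 only 115 regions remained: 7.902, log2 0.25, short arm 9.20, long arm 6.45. There 23 were higher (20%, against 10.8% of all such regions) and 3 lower (2.61%, against 13.5%). Without the last 2.444 Mb, chosen after seeing the data, 500 were higher (43.9%, against 12.1% of all regions). R1 minus R2 then reversed to -1.27, against -2.12 over all regions. With only regions whose peaks were their own, also chosen later, the rank difference was 12.1. Leaving out 1 library gave 862 (42.4%, against 14.4% of all regions) to 1279 (54.1%, against 23.01%) higher, the most without naïve replicate 2. It gave 15 (0.739%, against 14.2%) to 116 (5.45%, against 23.9%) lower, the most without naïve replicate 1. Without naïve replicate 2, R2 replicate 1 or R2 replicate 2, 68, 44 and 33 were lower, with shares as given above. The rank difference then ran from 14.7 to 16.9 and that of RBM39 from 13.4 to 26.3. In 5 Mb bins 13 of 13 were positive. The resistant minus naïve share of top peaks, 1.79 points, was 2.56 among 50000. The share of regions at starts was 30.0% within 500 bp and 55.0% within 2500 bp. Ranking by fold gave identical values, which are counted among the 74. This is no separate check, since within a list fold and p both follow the pileup. No paired analysis was possible because these results come from no test. With 2 libraries of unlike depth per type, depth limits which weak regions are listed at all.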
